A study of Mus musculus with 12 samples.

Results

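The genes described here are the paired isoforms of cytochrome c oxidase and the subunits known as hypoxia-type: Cox4i1 and Cox4i2, Cox6a1 and Cox6a2, Cox7a1, Cox7a2 and Cox7a2l, Ndufa4 and Ndufa4l2, and Higd1a. They were chosen by symbol through their Ensembl IDs, and all 10 were found among the 48709 gene IDs of the count tables. RNA sequencing was done on C57BL/6 mouse embryonic fibroblasts in culture, in 4 groups of 3 samples. WT normoxia and WT hypoxia were labelled as wild-type cells, and TAZKo normoxia and TAZKo hypoxia as knockout cells for tafazzin. The hypoxia groups spent 24 hours in a hypoxia workstation, and all groups were grown in DMEM with fetal bovine serum. The oxygen level, how the knockout was made, and the number of embryos or clones behind the cells are not given in the labels used here. No label says whether the 3 samples of a group were separate cultures, so the p-values measure the spread between these samples, which may be technical.

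Cytochrome c oxidase, or complex IV, is the last enzyme of the respiratory chain: it passes electrons from cytochrome c to oxygen and pumps protons across the inner mitochondrial membrane. Its catalytic core is encoded in the mitochondrial genome, and nuclear genes encode the smaller subunits around it, several of which exist as a widely expressed form and a form restricted to a tissue (heart and skeletal muscle for Cox6a2 and Cox7a1) or favoured at low oxygen (Cox4i2). Tafazzin, encoded by Taz, remodels cardiolipin, the lipid of that membrane to which complex IV and the respiratory supercomplexes are bound.

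Total counts ran from 21039451 to 31204510 per library, so that 3 counts, taken here as the floor of detection, were worth 0.0927 to 0.150 CPM (counts divided by the effective library size, which edgeR sets with the TMM method). This floor and the counting intervals below cover counting error only. Taz itself was higher in the libraries labelled TAZKo, against the direction of the label: it stood at 34.6 ± 2.92 CPM in WT and 42.2 ± 3.19 CPM in TAZKo in normoxia (SD, n = 3 in each group), and at 25.1 ± 1.49 and 33.8 ± 1.15 CPM in hypoxia. Both differences passed the threshold in edgeR, with log2 values of 0.29 (adjusted p 0.0139) and 0.43 (adjusted p 0.00112). A count over the whole gene does not show whether a part of it is deleted, so these values do not check the labels. Every genotype difference below is therefore one between libraries labelled TAZKo and libraries labelled WT. Of 8 fibroblast markers 7 passed the filter on low counts, with a summed level per library in normoxia of 4712 to 5769 CPM in WT and 3885 to 3966 in TAZKo, and in hypoxia of 6868 to 7924 and 5472 to 5887. Markers of other cell types also moved with the groups. Endothelial markers summed in normoxia to 18.0 to 21.0 CPM in WT and 5.64 to 7.45 in TAZKo, and in hypoxia to 14.5 to 20.5 and 3.84 to 5.05. Markers of pericytes or vascular smooth muscle summed to 36.6 to 51.0 CPM in WT over both conditions, to 39.2 to 45.8 in TAZKo normoxia and to 58.1 to 64.8 in TAZKo hypoxia. Blood markers summed to 2.90 to 4.42 CPM in normoxia and 6.02 to 8.04 in hypoxia over both genotypes. Epithelial markers summed to 98.0 to 105 CPM in TAZKo normoxia and 117 to 152 in the other groups. The part of these differences in the results below was not tested. Kcnj8 and Abcc9, Cdh5, and Ptprc, Adgre1 and Hba-a1 among these had at most 3 counts in any library. In bulk RNA, fewer cells of a type and less RNA per cell cannot be told apart.

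WT normoxia sample 1 stood apart from the other samples of its group on the third principal component of log2 CPM, at 35.7 against -12.8 and -13.4. It had the highest CPM of the 12 libraries for Cox4i1, Cox6a1, Cox7a2 and Ndufa4. Values without it are given beside the calls of the 10 genes that change with it. Directions also changed for small values. Without it the genotype difference in normoxia was 0.0077 for Cox7a2, and the hypoxia difference in WT was 0.059 for Cox4i1. The difference of the hypoxia responses between genotypes was -0.072 for Cox7a1 and -0.024 for Cox7a2l. None of these values passed the threshold in edgeR. The changed direction of Cox6a1 is given with that gene.

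Of the 10 genes 8 passed the filter that left 14408 genes for testing; Cox4i2 and Ndufa4l2 did not. Hypoxia changed 5 of these 8 genes in WT cells, where 51.0% of all tested genes passed the threshold (26.0% higher and 25.0% lower), and 5 of 8 in cells labelled TAZKo, where 43.8% did (22.2% higher and 21.6% lower; edgeR quasi-likelihood test, adjusted p under 0.05). In both genotypes Higd1a, Cox7a1 and Cox7a2l rose, and Ndufa4 and Cox7a2 fell. TAZKo against WT gave 3 of 8 genes in normoxia, against 30.4% of all tested genes (15.6% higher and 14.9% lower), and 3 of 8 in hypoxia, against 32.8% (15.8% higher and 16.9% lower). Cox6a2 and Cox7a2l were higher in both conditions in the libraries labelled TAZKo, with Cox4i1 lower in normoxia and Ndufa4 lower in hypoxia. Cox6a2 is among the 3 in each condition and passed the filter through the TAZKo libraries where it is high, so its call was favoured by the filter and nothing is read from these counts against the shares of all genes. The median log2 difference over the 8 genes was 0.09 in WT and 0.07 in TAZKo for hypoxia, beside 0.01 and -0.01 over all tested genes. For genotype it was -0.09 in normoxia and -0.04 in hypoxia, beside 0.01 and -0.01. The comparisons share samples: each group enters a genotype and a hypoxia comparison.

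**Figure D1:**
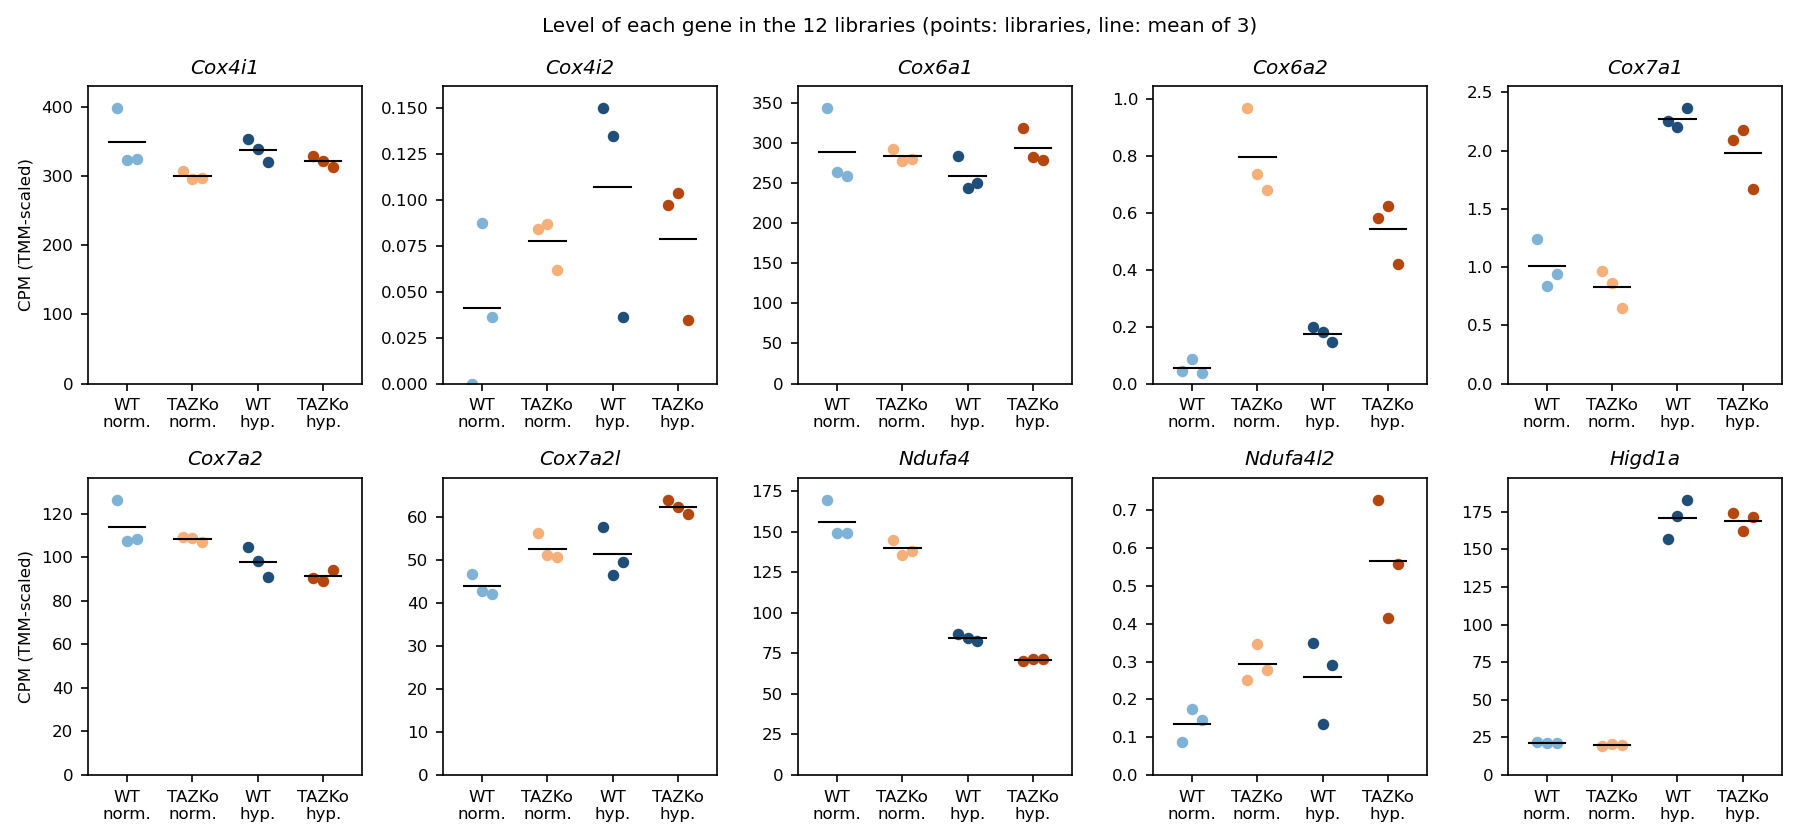
Level of each of the 10 genes in the 12 libraries, in CPM scaled by TMM on linear axes that start at 0 and differ between panels; points are libraries in the order of samples 1 to 3, and lines are means of 3. Higd1a stands between 157 and 183 CPM in hypoxia against 19.1 to 21.8 in normoxia, and Ndufa4 is lower in all 6 hypoxia libraries than in any normoxia library.

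Promoter sequences are shown for the gene that rose most, for the rising muscle-type subunit and for the subunit that fell most. RefSeq promoter windows of GRCm38.p6, from 250 bases before to 50 bases after the start of transcription, were found for 6 of the 10 genes; Cox4i1, Cox4i2, Cox6a2 and Ndufa4l2 had no entry. Hypoxia-inducible factors are known to bind DNA at the letters ACGTG and GCGTG, which were searched on both strands, overlaps included. Capitals mark the matches, and a match on the other strand reads CACGT or CACGC in the strand shown. The windows are chr9:121857747-121858046 on the minus strand for Higd1a, chr7:30183921-30184220 on the plus strand for Cox7a1 and chr6:11907401-11907700 on the minus strand for Ndufa4, each printed 5′ to 3′.
Higd1a: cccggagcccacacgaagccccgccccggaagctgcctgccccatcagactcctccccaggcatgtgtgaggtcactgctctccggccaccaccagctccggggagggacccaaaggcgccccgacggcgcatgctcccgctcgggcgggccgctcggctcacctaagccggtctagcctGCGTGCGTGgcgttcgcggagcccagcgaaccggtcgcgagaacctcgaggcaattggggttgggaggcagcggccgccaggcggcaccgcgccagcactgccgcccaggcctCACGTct
Cox7a1: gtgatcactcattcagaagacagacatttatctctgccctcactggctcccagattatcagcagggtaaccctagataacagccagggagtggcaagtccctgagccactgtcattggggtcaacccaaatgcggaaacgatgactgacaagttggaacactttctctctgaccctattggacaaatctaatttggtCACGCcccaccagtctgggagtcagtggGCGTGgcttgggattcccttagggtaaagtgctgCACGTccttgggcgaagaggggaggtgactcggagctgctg
Ndufa4: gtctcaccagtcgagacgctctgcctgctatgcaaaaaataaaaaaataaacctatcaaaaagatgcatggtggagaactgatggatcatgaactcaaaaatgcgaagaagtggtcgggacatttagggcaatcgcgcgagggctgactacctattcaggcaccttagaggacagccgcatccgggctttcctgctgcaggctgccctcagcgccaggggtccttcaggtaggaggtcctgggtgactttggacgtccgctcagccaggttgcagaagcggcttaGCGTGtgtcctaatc
Higd1a had 3 matches, of which a pair of GCGTG that share 1 base began at -70 and -66 and an ACGTG of the other strand stood at 44, counted from the first transcribed base as 1. Cox7a1 also had 3, at -53, -25 and 10, with the first and the last on the other strand. Ndufa4 had 1, at 36, inside the transcribed part. Cox7a2 had 1, at -111, and the windows of Cox6a1 and Cox7a2l held neither word. Of all 32851 promoter windows of this length 43.8% held at least 1 of the words, 19.6% held ACGTG and 32.4% held GCGTG. A match describes these letters only and is no evidence of a bound site. For all 3 printed genes the GENCODE M21 model begins upstream of this RefSeq start.

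Higd1a (ENSMUSG00000038412, GRCm38 chr9:121848563-121858362, minus strand) encodes a small inner membrane protein that binds complex IV and is known as a target of hypoxia-inducible factors. It gave 21.8, 21.2 and 21.5 CPM in the 3 WT normoxia libraries and 157, 172 and 183 CPM in WT hypoxia. In TAZKo it gave 19.1, 20.8 and 19.9 CPM in normoxia and 174, 162 and 171 CPM in hypoxia. Every hypoxia library lay far above every normoxia library. The log2 rise was 2.99 ± 0.07 (SE) in WT, 7.94-fold with an adjusted p of 1.97e-12, and 3.08 ± 0.07 in TAZKo, 8.48-fold with an adjusted p of 1.11e-12. The rises differed by 0.10 between genotypes, with a 95% interval from -0.11 to 0.30 and an adjusted p of 0.675. In hypoxia the genotypes overlapped, with a log2 difference of -0.01 (95% interval -0.15 to 0.12). In normoxia each TAZKo library lay below each WT library, but the difference of -0.11 did not pass the threshold (adjusted p 0.273). An antisense gene, Gm47112, covers 683 of the exon bases of Higd1a and has no row in the tables; the kit does not mark strand, so its reads could not be told apart from those of Higd1a.

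Ndufa4 (ENSMUSG00000029632, GRCm38 chr6:11900292-11907497, minus strand) was long listed as a complex I subunit and is now known as a component of complex IV. The WT libraries gave 170, 150 and 149 CPM in normoxia and 86.7, 84.4 and 82.5 CPM in hypoxia. The TAZKo libraries gave 145, 136 and 138 CPM in normoxia and 70.4, 71.7 and 71.5 CPM in hypoxia. In both genotypes the hypoxia libraries lay below all normoxia libraries, and in both conditions the TAZKo libraries lay below all WT libraries. With hypoxia Ndufa4 fell by 0.89 on the log2 scale in WT (SE 0.06, adjusted p 6.84e-08) and by 0.97 in TAZKo (SE 0.06, adjusted p 4.38e-08). The 2 falls differed by -0.09 (95% interval -0.27 to 0.10, adjusted p 0.678). The genotype difference in hypoxia was -0.25 ± 0.06 with an adjusted p of 0.00736. In normoxia it was -0.16 ± 0.06 with an adjusted p of 0.0601. With the replicate number as a block, which pairs the samples in that comparison, the value was -0.16 with an adjusted p of 0.0337, and with WT normoxia sample 1 left out it was -0.10 with an adjusted p of 0.147. It was called in 2 of 11 alternatives and in 9 of 12 edgeR fits with 1 library left out (adjusted p 0.0197 to 0.147). In 11 of those 12 fits TMM takes WT normoxia sample 1 as its reference. With that reference in the full set the value was -0.19 (edgeR, adjusted p 0.0226).

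Its paralog Ndufa4l2 (ENSMUSG00000040280, GRCm38 chr10:127514967-127517154, plus strand), known as a gene induced by hypoxia-inducible factor 1, was near the floor of detection. The 3 libraries of a group held 2, 4 and 4 counts in WT normoxia and 6, 8 and 9 in TAZKo normoxia. Hypoxia gave 7, 3 and 8 counts in WT and 15, 12 and 16 in TAZKo. TAZKo libraries lay above WT libraries in each condition, and hypoxia libraries lay above normoxia libraries in TAZKo but not in WT. Pooled over the group, TAZKo had 2.13 times the WT level in hypoxia, from 43 and 18 counts (exact 95% counting interval 1.20 to 3.93), and 2.12 times in normoxia, from 23 and 10 counts (0.971 to 4.99). Hypoxia had 1.89 times the normoxia level in TAZKo (1.12 to 3.29) and 1.88 times in WT (0.825 to 4.57). Fitted without the filter, none of these differences passed the threshold, with adjusted p from 0.0698 for genotype in hypoxia to 0.391 for hypoxia in WT. With only the 6 samples of a comparison the gene passed the filter, and the genotype difference in hypoxia was 1.10 (adjusted p 0.047) and the hypoxia difference in TAZKo 0.92 (adjusted p 0.0359), both past the threshold. With 1 library left out it passed the filter in 10 fits, where the genotype difference in hypoxia was called in 8 (adjusted p 0.0259 to 0.146, lost without WT hypoxia sample 2 or 3) and hypoxia in TAZKo in 4 (0.0323 to 0.126). The gene passes these filters through the TAZKo hypoxia libraries where it is high. It overlaps Shmt2 on the opposite strand by 32 exon bases. Shmt2, a mitochondrial serine hydroxymethyltransferase, stood at 268 CPM in WT and 537 CPM in TAZKo in normoxia, and at 306 and 526 CPM in hypoxia. Without strand, reads of the shared bases cannot be told apart, and their part in the low counts of Ndufa4l2 was not tested. The 676 tested genes of chromosome 10 had a median genotype difference of 0.31 in normoxia and 0.29 in hypoxia, which was likewise not tested as a part of this result.

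The log2 ratio of Ndufa4l2 to Ndufa4 per exon length, with 2 counts added, was higher in hypoxia by 1.63 (exact stratified permutation test, two-sided p 0.005, adjusted p 0.00833 over 10 ratio tests). It was higher in TAZKo by 1.05 (exact permutation p 0.005, adjusted p 0.00833). With the replicate block both calls were lost, at an adjusted p of 0.0521, the smallest that the 64 arrangements it leaves can give. Ndufa4 itself fell by 0.89 to 0.97 in the hypoxia comparisons, so the ratio joins its fall to the low counts of Ndufa4l2. A p of 0.005 is the smallest that the 400 arrangements of the 12 samples can give. Within 1 genotype or condition 3 against 3 samples cannot go below an exact p of 0.1. Ndufa4l2 made up 0.112% ± 0.0421 of the pair's level per length in WT normoxia and 0.996% ± 0.283 in TAZKo hypoxia (SD, n = 3), so that Ndufa4 was the main form in every library.

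**Figure D2:**
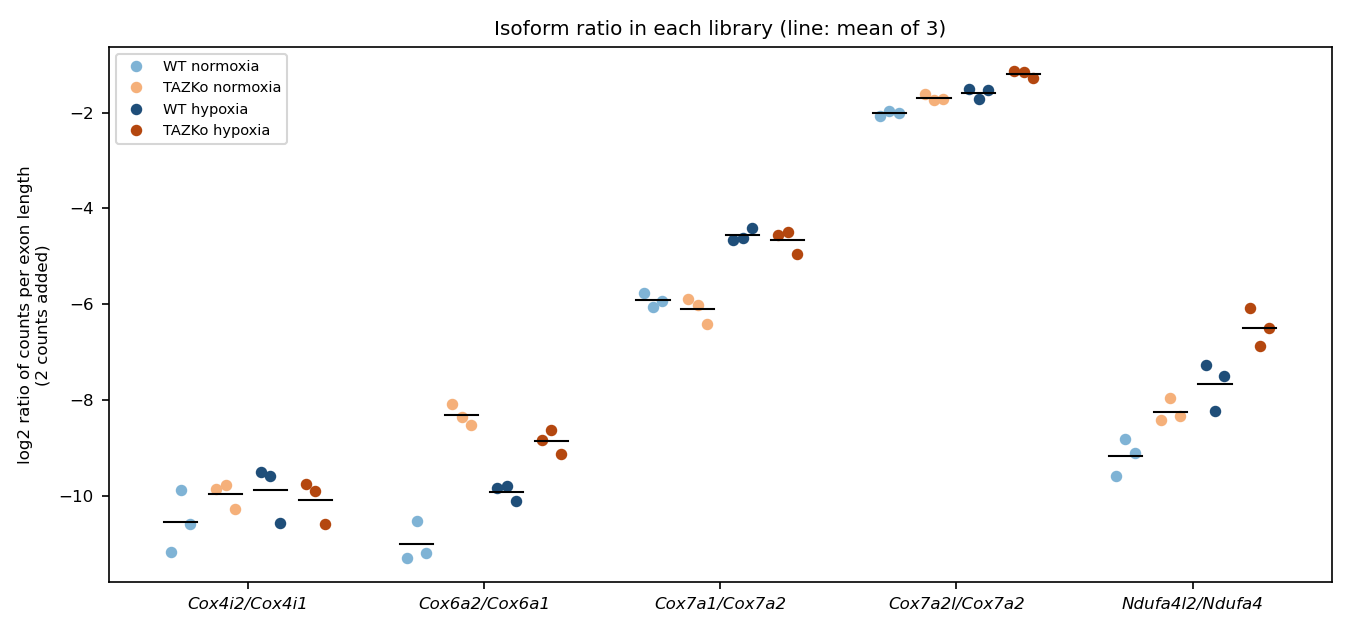
Log2 ratio of the first to the second named gene of 5 pairs in each library, from counts per exon length with 2 counts added. Points are libraries and lines are means of 3 per group. Cox7a1/Cox7a2 rises from near -6 in normoxia to near -4.6 in hypoxia in both genotypes, Cox6a2/Cox6a1 is higher in the libraries labelled TAZKo, and Cox4i2/Cox4i1 stays at the floor of detection in all groups.

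Cox7a1 (ENSMUSG00000074218, GRCm38 chr7:30184144-30186078, plus strand) is the heart and skeletal muscle form of subunit 7a. It gave 1.24, 0.834 and 0.942 CPM in WT normoxia and 2.25, 2.20 and 2.37 CPM in WT hypoxia. In TAZKo it gave 0.968, 0.867 and 0.649 CPM in normoxia and 2.09, 2.18 and 1.67 CPM in hypoxia. The hypoxia libraries lay above all normoxia libraries, at counts of 43 to 65 against 19 to 28. The log2 rise was 1.18 ± 0.20 in WT, 2.27-fold with an adjusted p of 0.000217, and 1.27 ± 0.20 in TAZKo, 2.42-fold with an adjusted p of 0.000203. No genotype difference passed the threshold; it was -0.30 in normoxia (95% interval -0.79 to 0.19) and -0.20 in hypoxia (-0.58 to 0.17). Of 7 skeletal or cardiac muscle markers, Myod1, Myog, Ckm, Actn2, Myh6 and Myh7 had at most 3 counts in any library. The summed level of the list, carried by Tnnt2, ran in normoxia from 1.05 to 1.23 CPM for WT and from 2.07 to 2.15 for TAZKo, and in hypoxia from 7.95 to 8.61 and from 11.0 to 12.3. Its part in the values of Cox7a1 was not tested.

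Cox7a2 (ENSMUSG00000032330, GRCm38 chr9:79755361-79759878, minus strand), the widely expressed form of subunit 7a, moved the other way. It gave 127, 107 and 108 CPM in WT normoxia and 105, 98.3 and 91.0 CPM in WT hypoxia. In TAZKo it gave 110, 109 and 107 CPM in normoxia and 90.3, 89.4 and 94.4 CPM in hypoxia. Within each genotype the hypoxia libraries lay below the normoxia libraries. With hypoxia it fell by 0.22 on the log2 scale in WT (SE 0.07, adjusted p 0.0208) and by 0.25 in TAZKo (SE 0.07, adjusted p 0.0128). Without WT normoxia sample 1 the WT value was -0.14 with an adjusted p of 0.0568. Neither genotype difference passed the threshold, with -0.07 in normoxia and -0.10 in hypoxia. The log2 ratio of Cox7a1 to Cox7a2 per length was higher in hypoxia by 1.40 (exact stratified permutation p 0.005, adjusted p 0.00833, and 0.0521 with the replicate block). For genotype the ratio differed by -0.15 (exact permutation p 0.255, adjusted p 0.364). Cox7a1 made up 1.52% ± 0.174 of the pair in WT normoxia and 3.94% ± 0.390 in WT hypoxia (SD, n = 3). In TAZKo its share was 1.33% ± 0.245 and 3.69% ± 0.581, so Cox7a2 remained the main form.

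Cox7a2l (ENSMUSG00000024248, GRCm38 chr17:83501918-83517330, minus strand) encodes a relative of subunit 7a that is known for a part in supercomplexes of complexes III and IV. Neither the protein nor supercomplexes were measured in these cells, so the RNA values below say nothing of that function. Cox7a2l gave 46.8, 42.9 and 42.2 CPM in WT normoxia and 57.7, 46.7 and 49.6 CPM in WT hypoxia. In TAZKo it gave 56.2, 51.2 and 50.7 CPM in normoxia and 64.1, 62.4 and 60.8 CPM in hypoxia. TAZKo libraries lay above WT libraries in each condition, and hypoxia libraries lay above normoxia libraries in TAZKo, while in WT the groups overlapped. The genotype difference was 0.26 ± 0.08 in normoxia (adjusted p 0.0235) and 0.28 ± 0.08 in hypoxia (adjusted p 0.0141). The hypoxia difference was 0.22 ± 0.08 in WT (adjusted p 0.0322) and 0.24 ± 0.08 in TAZKo (adjusted p 0.0223). The WT hypoxia call was the least stable of these: it was kept in 4 of 11 alternatives and in 2 of 12 fits with 1 library left out, and with WT hypoxia sample 1 left out the value was 0.08 with an adjusted p of 0.365. The genotype call in normoxia was kept in 10 of 11 alternatives and in 3 of those 12 fits. In 11 of the 12 fits TMM also takes WT normoxia sample 1 as its reference in place of sample 3. That change alone, in the full set, gave 0.17 for hypoxia in WT (edgeR, adjusted p 0.0855). These counts thus join the change of reference to the loss of a library, and the part of each was not tested. The hypoxia call in TAZKo was lost with library size alone (0.15, adjusted p 0.144) and in 5 of the 12 fits (without TAZKo normoxia sample 2 or 3 or any TAZKo hypoxia library), and the genotype call in hypoxia in 3 (without WT hypoxia sample 2 or 3 or TAZKo hypoxia sample 1). Of the 50-base words of its longest transcript 17.7% are shared with a processed pseudogene, Gm6969, which held 243 to 542 counts per library. With the pseudogene's counts added to Cox7a2l the 4 differences were 0.25 to 0.28 and passed the threshold.

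The ratio of Cox7a2l to Cox7a2, which does not depend on library scaling, was higher in hypoxia by 0.47 and in TAZKo by 0.36 on the log2 scale (exact stratified permutation p 0.005 and adjusted p 0.00833 for each, and 0.0521 for each with the replicate block). In normoxia Cox7a2l made up 19.8% ± 0.614 of the pair's level per length in WT and 23.7% ± 0.883 in TAZKo (SD, n = 3). In hypoxia it made up 25.0% ± 1.54 and 30.4% ± 1.09. The share was thus lowest in WT normoxia and highest in TAZKo hypoxia, and the groups between them overlapped.

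Cox4i1 (ENSMUSG00000031818, GRCm38 chr8:120668222-120674207, plus strand) encodes the common form of subunit 4, which binds ATP and regulates the enzyme. It gave 399, 323 and 325 CPM in WT normoxia and 307, 296 and 298 CPM in TAZKo normoxia. In hypoxia it gave 354, 339 and 321 CPM in WT and 329, 321 and 314 CPM in TAZKo. The genotypes did not overlap in normoxia and overlapped in hypoxia, and WT normoxia sample 1 was far above the rest. The normoxia genotype difference was -0.22 ± 0.08 with an adjusted p of 0.0438. Without WT normoxia sample 1 it was -0.11 with an adjusted p of 0.109. The difference in hypoxia was -0.07 (adjusted p 0.509), and whether the genotype difference changed with hypoxia gave 0.14 (95% interval -0.08 to 0.37, adjusted p 0.562). The 796 tested genes of chromosome 8 had a median genotype difference of -0.16 in normoxia and -0.15 in hypoxia; its part in the value of Cox4i1 was not tested. Hypoxia gave -0.05 in WT (95% interval -0.21 to 0.12) and 0.10 in TAZKo (-0.06 to 0.26). Cox4i1 overlaps Emc8 on the opposite strand by 154 exon bases, where reads of the genes cannot be told apart; Emc8 held 1492 to 2399 counts per library.

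Cox4i2 (ENSMUSG00000009876, GRCm38 chr2:152754173-152765037, plus strand), the form known for lung and for induction at low oxygen, was at or under the floor in all 12 libraries. It had 0, 2 and 1 counts in WT normoxia and 2 in each library of TAZKo normoxia. Hypoxia gave 3, 3 and 1 counts in WT and 2, 3 and 1 in TAZKo. No group stood apart. Fitted without the filter in edgeR, no comparison passed the threshold. The lowest adjusted p was 0.539, for hypoxia in WT, with a log2 difference of 1.13 ± 1.05 (SE). At these counts no fold change is read. Even with the floor of 3 counts in its place, Cox4i2 made up at most 0.0871% of the pair's level per length in any library. A share of Cox4i2 transcripts above that value was thus not seen in either genotype, and a change below it was not detectable at this depth. The exact permutation tests of the Cox4i2 to Cox4i1 ratio gave adjusted p of 0.433 for hypoxia and 0.55 for genotype.

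Cox6a1 (ENSMUSG00000041697, GRCm38 chr5:115345642-115348981, minus strand) is the common form of subunit 6a. In normoxia it stood at 289 ± 47.2 CPM in WT and 283 ± 7.59 in TAZKo, and in hypoxia at 259 ± 21.3 and 293 ± 21.8 (SD, n = 3). WT and TAZKo overlapped in normoxia, each TAZKo hypoxia library lay above 2 of the 3 WT hypoxia libraries, and no comparison passed the threshold in the fit of all 12 samples. The hypoxia difference was -0.16 in WT (95% interval -0.37 to 0.05) and 0.05 in TAZKo (-0.17 to 0.26), and the genotype difference was -0.03 in normoxia (-0.24 to 0.19) and 0.18 in hypoxia (-0.04 to 0.39). The comparisons that hold WT normoxia sample 1 rest on it: without it the genotype difference was 0.11 in normoxia (adjusted p 0.237), and hypoxia in WT was -0.02. The genotype difference in hypoxia does not hold that sample and stayed at 0.18 without it. Its SE in the fit went from 0.10 to 0.06, and its adjusted p was 0.0319, past the threshold. The genotype difference in hypoxia also passed with only its 6 samples (adjusted p 0.042) and with the replicate block (0.0372). Hypoxia in WT passed with library size alone (-0.27, adjusted p 0.0414), without the filter (-0.24, 0.00907), and without WT normoxia sample 2 (0.0478) or 3 (0.0315) or WT hypoxia sample 1 (0.0441).

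Cox6a2 (ENSMUSG00000030785, GRCm38 chr7:128205435-128206387, minus strand), the heart and skeletal muscle form of subunit 6a, was a rare transcript whose level went with the genotype label. The libraries held 1, 2 and 1 counts in WT normoxia and 23, 17 and 22 in TAZKo normoxia. In hypoxia they held 4 in each WT library and 12, 18 and 12 in TAZKo. The genotypes did not overlap in either condition. It passed the filter on low counts through the TAZKo libraries where it is high, so its genotype calls were favoured by the filter. The fitted log2 difference was 3.73 ± 0.40 in normoxia (adjusted p 1.22e-05) and 1.62 ± 0.35 in hypoxia (adjusted p 0.0029). Pooled counts gave a ratio of 14.3 in normoxia, from 62 and 4 counts (exact 95% counting interval 5.31 to 54.1), and of 3.12 in hypoxia, from 42 and 12 counts (1.61 to 6.52). The WT libraries thus held more counts in hypoxia, and the TAZKo libraries lay lower than in normoxia. Neither difference passed the threshold, with log2 differences of 1.57 (adjusted p 0.0618) and -0.54 (adjusted p 0.11). With lane as a covariate the WT value was 1.66 with an adjusted p of 0.0492, past the threshold. Lane was not balanced over oxygen, as described with the processing. The pooled ratio was 3.14 in WT (0.952 to 13.4) and 0.686 in TAZKo (0.452 to 1.03). The log2 ratio of Cox6a2 to Cox6a1 was higher in TAZKo by 1.87 (exact stratified permutation p 0.005, adjusted p 0.00833, and 0.0521 with the replicate block) and differed by 0.27 with hypoxia (exact permutation p 0.39, adjusted p 0.433). Cox6a2 made up 0.288% ± 0.0474 of the pair in TAZKo normoxia and 0.0207% ± 0.0118 in WT normoxia (SD, n = 3), so Cox6a1 was the form present in all groups. The muscle marker sums given with Cox7a1, carried by Tnnt2 alone, were also higher in TAZKo than in WT in each condition. With hypoxia these sums were higher in both genotypes, while the Cox6a2 libraries lay higher in WT and lower in TAZKo. The part of these sums in the values of Cox6a2 was not tested. Cox6a2 shares 70 exon bases with Itgad on the opposite strand, which had at most 1 count in any library.

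**Figure D3:**
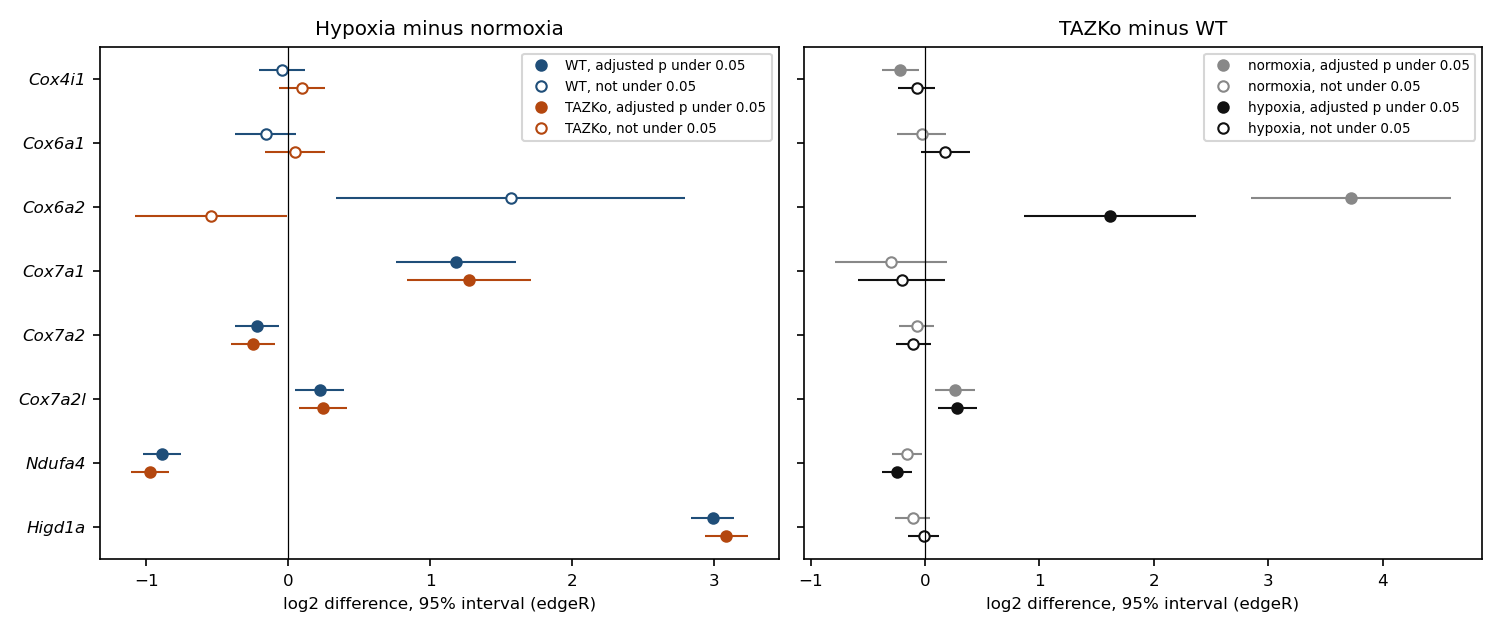
Log2 differences of the 8 tested genes with 95% intervals from edgeR, for hypoxia against normoxia in each genotype (left) and TAZKo against WT in each condition (right); filled points have an adjusted p under 0.05. Higd1a lies near 3 for hypoxia in both genotypes, Ndufa4 near -0.9, and Cox6a2 has the widest intervals.

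When the response to hypoxia was compared between genotypes, 0 of the 8 genes passed the threshold in edgeR, against 2.43% of all tested genes. Cox6a2 alone had an unadjusted p under 0.05, at 0.0074. DESeq2 also called 0 of them. The intervals of the other 7 genes all included 0, and the widest of them, for Cox7a1, ran from -0.52 to 0.71.

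Per kilobase of exon, the order of the levels in WT normoxia was Cox6a1 at 412 CPM per kilobase, Cox4i1 at 225, Cox7a2 at 121, Ndufa4 at 113, Cox7a2l at 29.7, Higd1a at 7.07 and Cox7a1 at 1.88. Ndufa4l2, Cox6a2 and Cox4i2 followed at 0.124, 0.0824 and 0.0524. Of these neighbours Cox7a2 and Ndufa4 overlapped, as did the last 3 genes. In WT hypoxia Higd1a stood at 56.1 CPM per kilobase, above Cox7a2l at 34.7 and overlapping with Ndufa4 at 61.2. In TAZKo hypoxia Higd1a stood at 55.7, above Ndufa4 at 51.6 and Cox7a2l at 42.2, with no overlap. In TAZKo normoxia Cox6a2 at 1.17 overlapped with Cox7a1 at 1.55. These levels were divided by the union of annotated exons. With the longest transcript instead, Cox4i1 passed Cox6a1 in WT hypoxia, at 442 against 417, and Higd1a passed Ndufa4 there, at 76.4 against 68.6.

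The genes whose log2 CPM over the 12 samples was most like that of Higd1a were Pdk1 (Pearson r 0.998), Myo1h (0.998) and Ak4 (0.997), among 10317 other tested genes with a mean of at least 5 CPM. Pdk1 encodes the kinase that restrains pyruvate dehydrogenase, and Ak4 a mitochondrial adenylate kinase. For Cox7a1 they were Klhl22 (0.982), Galk1 (0.98) and Aimp2 (0.979). For Cox6a2 they were Trim35 (0.975), Tlr2 (0.973) and Cth (0.973). The 12 samples fall into 4 groups that these genes share, so the coefficients describe the groups and carry no p.

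Among the other nuclear subunits of complex IV, the changes called for hypoxia were all falls. Of 11 such genes 7 passed the filter, and Cox6b2, Cox7b2, Cox8b and Cox8c had at most 3 counts in any library. In WT 4 of the 7 fell, against 25.0% of all tested genes that fell, and 0 rose, with a median of -0.20. In TAZKo 3 of the 7 fell, against 21.6%, with a median of -0.21. In WT the largest falls were those of Cox8a, by 0.52 on the log2 scale (adjusted p 0.000699), and Cox6b1, by 0.35 (adjusted p 0.00979). Cox8a and Cox7b fell most in TAZKo, by 0.36 (adjusted p 0.011) and 0.35 (adjusted p 0.000533). Cox8a, the widely expressed form of subunit 8, was also lower in TAZKo than in WT in normoxia, with a log2 difference of -0.43 (adjusted p 0.00564), as 1 of 7 genes called there, against 30.4% of all tested genes. In hypoxia 0 were called by edgeR, against 32.8%, but 1 without the filter or with WT normoxia sample 1 as the TMM reference. With 1 library left out the count stayed at 0 in 6 of 12 fits. It was 2 without WT normoxia sample 1 or 3. It was 1 without WT normoxia sample 2, TAZKo normoxia sample 1, WT hypoxia sample 3 or TAZKo hypoxia sample 3. Chromosomes differed in their median genotype difference, which was lowest on chromosome 19 (-0.27 in normoxia, -0.28 in hypoxia) and highest on chromosome 10 (0.31 and 0.29). The part of such shifts in the value of Cox8a was not tested. Of the mitochondrially encoded core, mt-Co1 stood at 3994 to 4627 CPM as group means and passed in no comparison. The genes mt-Co2 and mt-Co3 were listed at 0 in all 12 libraries. Of their 50-base words 100% and 99.9% also occur in other annotated genes, as against 51.1% for mt-Co1, so nothing is said of their level.

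Of 25 assembly and stability factors of complex IV 23 passed the filter; Sco2 and Pet117, which share 87.7% and 100% of their words with other genes, were listed at 0. With hypoxia 15 of the 23 fell in WT and 0 rose, against 25.0% of all tested genes that fell, with a median of -0.39. In TAZKo 10 fell and 0 rose, against 21.6%, with a median of -0.24. Coa3, which stabilises newly made mt-Co1 protein, fell by 0.86 (adjusted p 2.9e-07) and Cox19, a copper-related factor, by 0.86 (adjusted p 2.8e-06) in WT. In TAZKo Cox15, an enzyme of heme a synthesis, fell by 0.63 (adjusted p 1.84e-06) and Cox19 by 0.59 (adjusted p 0.000111). Between genotypes 1 was higher and 3 were lower in TAZKo in normoxia, against 15.6% and 14.9% of all tested genes, and 3 were higher and 1 lower in hypoxia, against 15.8% and 16.9%, with Cox15 lower in TAZKo in both (-0.29 and -0.38) and Coa5 higher in both (0.23 and 0.34). The median genotype differences of chromosome 19, given with Cox8a, were -0.27 in normoxia and -0.28 in hypoxia, beside these values of -0.29 and -0.38 for Cox15. The part of such chromosome shifts in these genotype differences was not tested, so they are not read as particular to single genes. The hypoxia response of Coa3 differed between genotypes by 0.45 (adjusted p 0.027), the only gene of the 23 called for that difference, against 2.43% of all tested genes. Its level in normoxia was 42.2 CPM in WT and 36.6 in TAZKo, and in hypoxia 23.2 and 27.6. That call was lost in 5 of the 12 fits with 1 library left out, namely TAZKo normoxia sample 2 or 3, WT hypoxia sample 3, or TAZKo hypoxia sample 1 or 3.

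**Figure D4:**
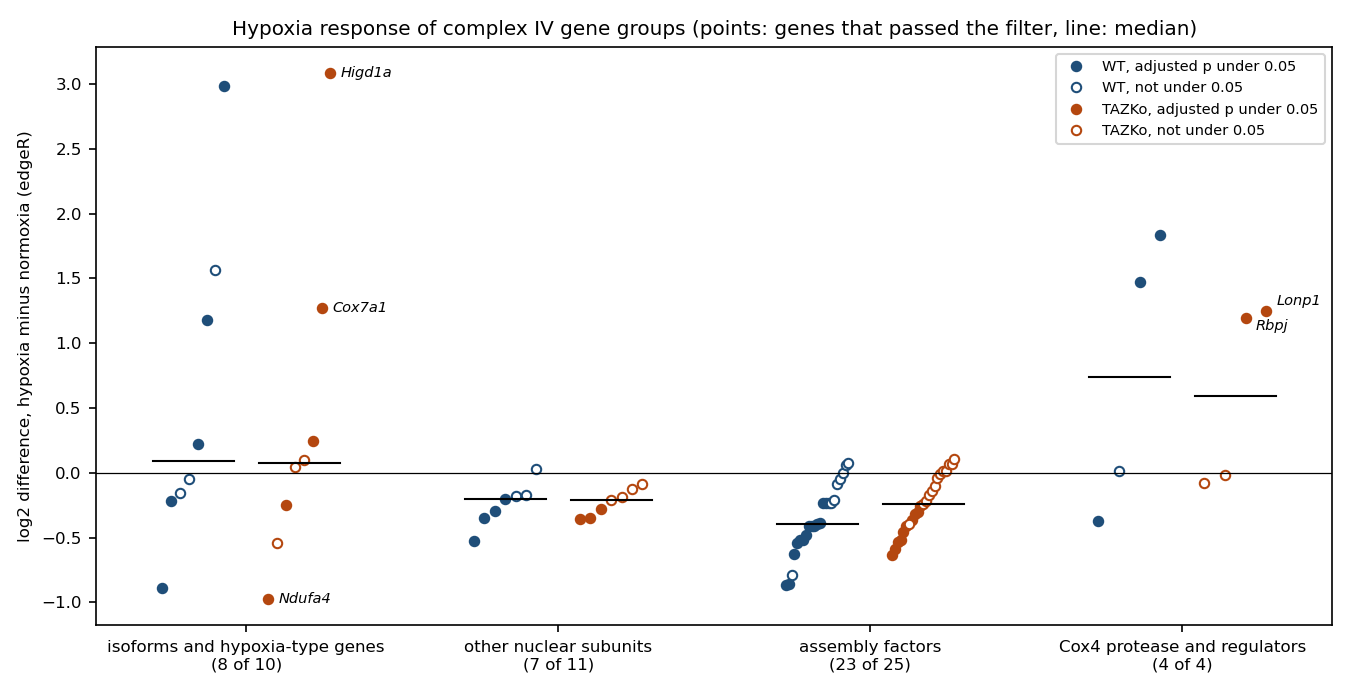
Log2 difference between hypoxia and normoxia (edgeR) of the tested genes of 4 lists in WT (blue) and TAZKo (orange); filled points have an adjusted p under 0.05 and lines are list medians. Apart from Higd1a, Cox7a1, Cox6a2 in WT, Lonp1 and Rbpj, all points lie below 0.3, and the assembly factors have medians of -0.39 in WT and -0.24 in TAZKo.

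Genes known for regulating the switch of subunit 4 were measured beside it. Lonp1, the mitochondrial protease known to degrade the Cox4i1 protein, stood at 267 CPM in WT and 397 CPM in TAZKo in normoxia, and at 955 and 942 CPM in hypoxia. It rose by a log2 of 1.84 ± 0.08 in WT (adjusted p 4.95e-10) and 1.25 ± 0.08 in TAZKo (adjusted p 3.1e-08), and these rises differed by -0.59 (adjusted p 0.00998). It was higher in TAZKo in normoxia by 0.57 (adjusted p 6.85e-05). Rbpj, a transcription factor known to act on the Cox4i2 promoter, rose by 1.47 in WT (adjusted p 1.11e-06) and 1.20 in TAZKo (adjusted p 1.03e-05), with 24.3% of its words shared with other genes. Cxxc5, known as a repressor of Cox4i2, fell by 0.37 in WT (adjusted p 0.0034) and was higher in TAZKo in hypoxia by 0.30 (adjusted p 0.0179), a call lost without WT hypoxia sample 2 or 3 or TAZKo hypoxia sample 2 or 3. Chchd2, known to bind both complex IV and that promoter, passed in no comparison. Cytochrome c itself, Cycs, passed in none either, and Cyct, Higd1b and Higd1c had at most 3 counts in any library.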

How the data were processed

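The authors deposited 1 table per sample of whole-number read counts per Ensembl gene ID. Reads were mapped to mm10, per the submitters' processing notes; the aligner, counting program, annotation and strand setting are not given in the sources used here. Of 48709 IDs 48349 were matched to GENCODE M21 symbols. Libraries came from total RNA with the TruSeq v2 kit, per the labels' protocols. Genes with low counts were removed (filterByExpr, 14408 genes left), counts were scaled by TMM, and all 12 samples were fitted with edgeR 4.0.16 (quasi-likelihood, 1 coefficient per group) in R 4.3.3. P-values were adjusted by Benjamini-Hochberg over all tested genes, with a threshold of 0.05. The SE is the log2 change over the root of F. Isoform ratios were compared by exact permutation within strata, adjusted over 10 tests. From a list, at most the 2 largest rises and 2 largest falls at 10 CPM or more were named, plus the 3 most like genes of Higd1a, Cox7a1 and Cox6a2 and list genes at the floor; Chchd2 and Cycs complete their lists. The members and lists were chosen with earlier results of these data known. Both methods were tested on simulated data.

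Deviations from group means of same-numbered samples had r of 0.149 to 0.354 for TAZKo against WT in normoxia and 0.152 to 0.368 for hypoxia in WT. Sample 2 of a group against sample 3 of the other had r of 0.112 and 0.116, and of 0.147 and 0.18. Sample 1 against sample 2 or 3 had r of -0.293 to -0.176, and of -0.28 to -0.202. The data thus set sample 1 apart there and do not show that samples 2 and 3 pair by number. Alternatives were DESeq2 1.42.0, other scalings and filters, a replicate block, lane, the 6 compared samples only, and leaving out each sample. Lane 4 held sample 1 of every group and lane 5 held sample 3 of every group. Sample 2 was on lane 4 in the normoxia groups and on lane 5 in the hypoxia groups. Lane thus overlaps with the replicate number and, through sample 2, with oxygen. Adding Gm6969 counts, the longest transcript and another TMM reference were chosen after seeing the data.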

Additional observations from a re-analysis of the deposited data

Results flagged for a closer look

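Cox6a2 was flagged because its hypoxia libraries lay above the normoxia libraries in WT and below them in TAZKo. The flag was taken from these same values, so this separation is the reason for it and no test of opposite responses. In the main fit neither response passed the threshold. All 3 WT hypoxia libraries lay above all WT normoxia libraries, at 4 counts in each against 1 to 2, and all 3 TAZKo hypoxia libraries lay below all TAZKo normoxia libraries on the CPM scale, at 0.418 to 0.623 against 0.680 to 0.968 CPM. The difference between the log2 responses was -2.11 ± 0.62, with an unadjusted p of 0.0074 and an adjusted p of 0.132 in edgeR, and so did not pass the threshold. Over the alternatives it ran from -2.19 to -2.06 with adjusted p of 0.0919 to 0.245. The fitted value rests on 4 counts in all of WT normoxia and depends on the prior count of the fit.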

How the results depend on the processing

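The calls of Higd1a, Ndufa4 and Cox7a1 for hypoxia in both genotypes, of Cox6a2 for genotype in both conditions and of Ndufa4 for genotype in hypoxia held in every alternative that gave a value and with each of the 12 libraries left out. Cox7a2 for hypoxia lost its call once, without WT normoxia sample 1 (adjusted p 0.0568). Cox4i1 for genotype in normoxia lost it with library size alone (adjusted p 0.0611), with only 6 samples (0.119), and without WT normoxia sample 1 or TAZKo normoxia sample 2 or 3. The number of the 10 genes called for TAZKo against WT in hypoxia became 5 with only the 6 samples of that comparison; with 1 library left out it ran from 2 to 5 (5 without WT normoxia sample 1, with Ndufa4l2 and Cox6a1 added each time it was 5), and in normoxia from 1 to 4 (1 without TAZKo normoxia sample 2 or 3). Scaling by library size alone shifted the all-gene median for hypoxia by -0.11 in WT and -0.09 in TAZKo, and calls among the other nuclear subunits for hypoxia in TAZKo went from 3 to 6. Assembly factors called for genotype in normoxia ran from 2 to 7 with 1 library left out. The replicate block left edgeR calls of the 8 genes as they were, apart from Ndufa4 for genotype in normoxia and Cox6a1 for genotype in hypoxia (0.18, adjusted p 0.0372). In the ratio tests the replicate block leaves 64 arrangements, so that the adjusted p cannot go under 0.0521; the ratio differences of 1.87 (Cox6a2/Cox6a1, genotype), 1.40 (Cox7a1/Cox7a2, hypoxia), 0.47 and 0.36 (Cox7a2l/Cox7a2, hypoxia and genotype) and 1.63 and 1.05 (Ndufa4l2/Ndufa4, hypoxia and genotype) all took that value. Same-numbered samples had a mean r of 0.127 against -0.061 for different numbers, 10 of 18 same-numbered pairs were over 0.1, and 9 of 12 samples correlated best with their own number. Small values near 0 changed sign. Higd1a for genotype in hypoxia was 0.0049 with upper quartile scaling, 0.0078 with library size alone, 0.0075 without a filter and 0.0016 with 6 samples. The interaction of Cox7a2 was 0.0091 with upper quartile scaling and 0.022 without a filter, that of Cox7a2l was -0.016 with Gm6969 added, and Cox6a1 for hypoxia in TAZKo was -0.046 with library size alone. With 1 library left out, ranges that cross 0 were -0.14 to 0.11 for Cox6a1 and -0.15 to 0.0077 for Cox7a2 (genotype in normoxia), -0.15 to 0.059 for Cox4i1 (hypoxia in WT), -0.043 to 0.053 for Cox6a1 (hypoxia in TAZKo), -0.082 to 0.034 for Higd1a (genotype in hypoxia), and for the interaction -0.072 to 0.24 for Cox7a1, -0.11 to 0.043 for Cox7a2 and -0.024 to 0.14 for Cox7a2l. Over all genes, 350 passed for the interaction, against 578 with DESeq2, 727 without a filter, 639 with the block and 174 to 711 with 1 library left out. TMM takes WT normoxia sample 3 as its reference in the full set and WT normoxia sample 1 in 11 of the 12 sets with 1 library left out. With sample 1 as the reference in the full set, Cox7a2l for hypoxia in WT was 0.17 (adjusted p 0.0855) and Ndufa4 for genotype in normoxia was -0.19 (adjusted p 0.0226). Depth limits Cox4i2, Ndufa4l2 and Cox6a2.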
